A study of Mus musculus with 7 samples.

Results

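The beta and alpha globin genes of the mouse were placed against lamin-associated domains (LADs), the stretches of chromatin that lie at the nuclear lamina, as mapped in embryonic fibroblasts. The members are 8 protein-coding genes taken by name, 5 of the beta cluster on chromosome 7 (Hbb-bt, Hbb-bs, Hbb-bh2, Hbb-bh1 and Hbb-y) and 3 of the alpha cluster on chromosome 11 (Hba-x, Hba-a1 and Hba-a2), out of 21130 protein-coding genes within the chromosome spans that the LAD list covers. The study applied CUT&RUN, in which a tethered nuclease releases the DNA around an antibody's target, to fibroblasts labelled iMEF. Of 7 libraries, 2 were for Lamin B1, a protein of the lamina, 2 for control IgG, 2 for H3K9me2 (1 with each of 2 antibodies) and 1 for H3K14ac. The series' text describes the fibroblast lines as derived independently within a single mouse colony. No treatment is labelled, the strain is not given in the sources used here, and only the name of the list calls the cells wild type. All positions below come from that 1 merged list of 1437 domains, so no value has a replicate error, the read depth is unknown, no test was run, and differences between the clusters are descriptions. Because the list holds positions and no expression, the labelled cell type could not be checked against markers.

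Hemoglobin is a tetramer of alpha-type and beta-type globin chains, each carrying a heme. Both clusters are active in erythroid cells, in which embryonic genes are used first and adult genes later, and fibroblasts are not a cell type in which they are known to be expressed. The beta genes are driven by a locus control region upstream of Hbb-y, and the alpha genes by enhancers that lie mostly in introns of the neighbouring gene Nprl3. LADs are as a rule poor in active genes.

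The clusters lay on opposite sides of the LAD map. All 5 beta globin genes were inside a LAD and none of the 3 alpha globin genes was, when 24.6% of all protein-coding genes had their midpoint in a LAD. Members of a cluster are neighbours and share their domain, so these counts stand for 1 locus each. On chromosome 7 the share of protein-coding genes in LADs was 38.6%, and on chromosome 11 it was 8.22%. The status of each gene was the same by its midpoint, either end, the whole gene or any overlap.

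The promoters are shown first because one set of them lies in a LAD and the other does not. RefSeq's promoter table for GRCm38.p6, the build of mm10, matched 7 of the 8 members. For the 6 whose tabulated start is the end of the gene model, the 120 bases before the transcription start are written in the direction of transcription. Capitals mark exact matches, searched on both strands, to short motifs. CACCC and the longer CCACACC, which can overlap it, are parts of the site of the erythroid factor Klf1. The CCAAT box is a common promoter element, as is the TATA box, searched as TATAAA and as its shorter form ATAAA. For GATA factors a form of their site, AGATAA, was searched. The first 3 lie in a LAD and the last 3 outside. Hbb-bt and Hbb-bs are the adult beta genes, Hbb-y is an embryonic one, Hba-x is the embryonic zeta-type gene, and Hba-a1 and Hba-a2 are the adult alpha genes.
Hbb-bt, minus strand, chr7:103813924-103814043: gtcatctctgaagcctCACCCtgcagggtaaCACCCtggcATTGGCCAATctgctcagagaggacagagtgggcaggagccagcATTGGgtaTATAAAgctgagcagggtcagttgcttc
Hbb-bs, minus strand, chr7:103827929-103828048: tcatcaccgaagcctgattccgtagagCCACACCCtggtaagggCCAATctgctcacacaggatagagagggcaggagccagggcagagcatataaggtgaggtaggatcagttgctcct
Hbb-y, minus strand, chr7:103853208-103853327: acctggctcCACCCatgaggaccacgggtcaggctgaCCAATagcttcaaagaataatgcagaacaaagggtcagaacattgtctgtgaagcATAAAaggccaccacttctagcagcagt
Hba-x, plus strand, chr11:32276480-32276599: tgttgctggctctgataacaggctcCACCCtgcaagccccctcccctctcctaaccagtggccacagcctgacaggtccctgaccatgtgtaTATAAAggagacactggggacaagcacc
Hba-a1, plus strand, chr11:32283552-32283671: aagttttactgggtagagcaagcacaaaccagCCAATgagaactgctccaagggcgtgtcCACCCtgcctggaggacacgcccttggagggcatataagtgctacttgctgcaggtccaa
Hba-a2, plus strand, chr11:32296372-32296491: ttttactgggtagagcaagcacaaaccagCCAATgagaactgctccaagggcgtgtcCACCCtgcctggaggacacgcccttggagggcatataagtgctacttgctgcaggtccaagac

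Of the 6 motifs searched, 4 were found in both clusters, and CCACACC and AGATAA in beta genes only. Other forms of the GATA site were not searched. The printed Hba-x sequence reads tgataa, which differs from AGATAA in its first letter. The clusters were therefore not compared for GATA sites in general. In the 250 bases before the start, CACCC was found in 6 of the 7 members with a sequence and in 53.0% of 16985 protein-coding promoters. CCAAT was found in 5 of 7 and in 36.3% of all promoters. TATAAA was in 2 of 7, one from each cluster (Hbb-bt and Hba-x), against 12.5% of all promoters, and ATAAA, which overlaps it, in 4 of 7 against 34.5%. The printed sequences of Hbb-bs, Hba-a1 and Hba-a2 read atataag, which neither exact string matches. A promoter without a match may therefore still hold a TATA box. CCACACC, which overlaps CACCC in Hbb-bs, was in 1 of 7 and in 6.58% of all promoters. AGATAA was in 2 of 7 (Hbb-bs, further upstream than the stretch printed, and Hbb-bh2, where the match falls within the gene model) and in 9.24% of all promoters. A match describes letters only, and no binding was measured at these sites.

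The promoters of the members differed in base composition between the clusters. The G+C share of the 250 bases upstream was 47.2% for Hbb-bt, 50.8% for Hbb-bs, 42.4% for Hbb-bh2 and 42.0% for Hbb-y. It was 57.2% for Hba-x, 54.0% for Hba-a1 and 54.4% for Hba-a2, so the values of these 3 alpha members all lay above those of the 4 beta members. The theta-type genes did not follow this order: Hbq1b, within the alpha cluster, was at 50.0% and Hbq1a, beside it, at 48.4%, both outside LADs and below Hbb-bs. Adgb, a globin gene in a LAD, was at 52.4%. For Hbb-bh2, the tabulated start lies 213 bp inside the gene model, so most of its window is gene sequence. Over all protein-coding promoters the median G+C share was 44.0% for 4278 genes in LADs and 58.0% for 12707 outside. CpG dinucleotides were few in the windows of the members. The alpha members held 1 (Hba-x), 4 (Hba-a1) and 4 (Hba-a2), against a median of 13 outside LADs and 2 inside. The beta members held 0 (Hbb-bt), 2 (Hbb-bs), 3 (Hbb-bh2) and 1 (Hbb-y). The theta-type genes had more, 10 in Hbq1b and 7 in Hbq1a.

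**Figure D1:**
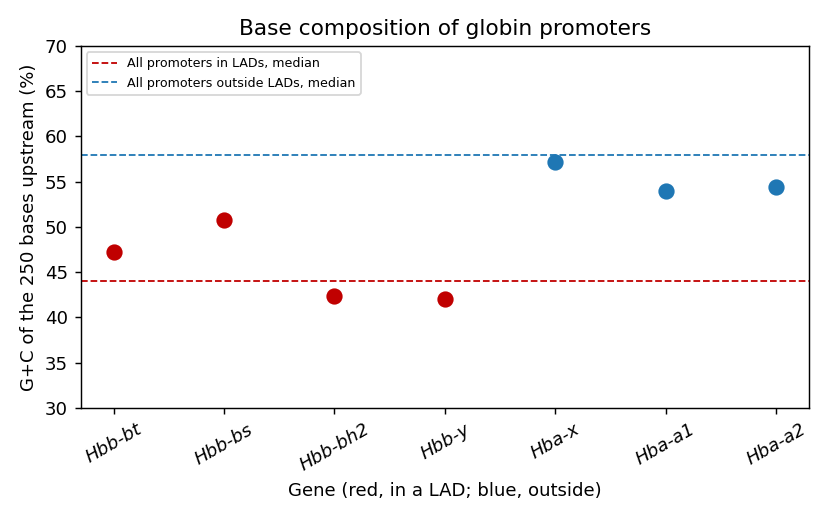
G+C share (vertical axis, %) of the 250 bases before the transcription start of each of the 7 alpha and beta globin members with a promoter sequence (horizontal axis; other globins not plotted), 1 point per gene, red in a LAD and blue outside. Dashed lines are the medians of all protein-coding promoters in LADs (44.0%) and outside (58.0%). The beta genes lie between 42.0% and 50.8% and the alpha genes between 54.0% and 57.2%.

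Copies within a cluster were near-identical in one case. The upstream windows of Hba-a1 and Hba-a2 aligned over 247 bases with 0 differences, while those of the adult beta genes Hbb-bt and Hbb-bs matched at 175 of 244 aligned bases (71.7%). The motif matches and G+C values of Hba-a1 and Hba-a2 given above are therefore not independent of each other. Short reads from the duplicated alpha stretch cannot be assigned to one copy, and how such reads were treated is not given in the sources used here. The nearest LAD is 936 kb from the alpha cluster, as described below.

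The beta cluster ran from Hbb-bt to Hbb-y over 40.7 kb (chromosome 7, 103812524 to 103853207, mm10). The 4 beta members with a tabulated strand (Hbb-bt, Hbb-bs, Hbb-bh2 and Hbb-y) lie on the minus strand, so the embryonic gene Hbb-y is at the upstream end and the adult genes follow at the downstream end. The LAD that held it spanned 102529803 to 105384793, a length of 2.85 Mb, which ranked 101 of 1437 by length. The cluster began 1283 kb from the low-coordinate border and ended 1532 kb from the high-coordinate one, with its midpoint at 45.6% of the length of the domain. It was thus near the middle of the domain, and both borders were further away than the 2.5 kb grid of the list could blur.

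Distances hardly differed among the beta genes. From the midpoint of the gene to the nearest border it was 1283 kb for Hbb-bt (103812524 to 103813923). It was 1297 kb for Hbb-bs (103826523 to 103827928). Hbb-bh2 (103838801 to 103840734), a further beta-type gene, was at 1310 kb. The embryonic gene Hbb-bh1 (103841638 to 103843162) was at 1313 kb and Hbb-y (103851754 to 103853207) at 1323 kb. Embryonic and adult genes were therefore equally inside, and the order of these values is the order of the genes on the chromosome. Of all 5207 protein-coding genes in LADs, the median distance to a border was 307.7 kb, and 9.43% lay further from a border than Hbb-bt and 8.87% further than Hbb-y. The pseudogenes within the cluster, Hbb-bh3 and Gm15115, were in the same LAD, when 52% of 9701 annotated pseudogenes were in LADs.

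The neighbours of the beta cluster were olfactory receptor genes on both sides, which encode odorant receptors of sensory neurons. All 10 nearest protein-coding genes on the low-coordinate side (Olfr67, Olfr68, Olfr69, Olfr630, Olfr629, Olfr628, Olfr243, Olfr624, Olfr623 and Olfr622) and all 10 on the high-coordinate side (Olfr66, Olfr64, Olfr65, Olfr631, Olfr632, Olfr633, Olfr635, Olfr638, Olfr639 and Olfr640) were receptors and in the LAD. The nearest were Olfr67 at 20.7 kb from the cluster and Olfr66 at 28.1 kb, and the farthest of the 20 lay 172.4 kb away. Both borders are further off than that, so the place of these neighbours in the LAD follows from that of the cluster. Among all 1109 olfactory receptor genes, 88.5% were in LADs.

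The domain as a whole held 151 protein-coding genes, or 52.9 per Mb. Olfactory receptors made up 123 of them (81.5%), 70 on the low-coordinate and 53 on the high-coordinate side of the globins. The beta globins were 5 of the 28 others. There were 12 Trim genes, a family of RING-finger proteins of which some restrict viruses, and 10 of these lay on the high-coordinate side. The domain also held 5 Usp17-like deubiquitinase genes, 3 ubiquilin genes and 3 further genes (Olfm5, Gm38525 and Gm5901).

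The ends of the beta domain followed the run of receptors closely but not exactly. On the low-coordinate side the receptors Olfr545, Olfr544 and Olfr543 lay outside, 35.0, 41.5 and 51.9 kb from the border. Beyond them came Rrm1, a subunit of ribonucleotide reductase, at 60.03 kb, and Stim1, a calcium sensor, at 92.5 kb. On the high-coordinate side Fam160a2 crossed the border, with its midpoint outside. It was followed outside by Cnga4, a subunit of the olfactory cyclic nucleotide-gated channel, at 15.2 kb and by Cckbr, the cholecystokinin B receptor, at 40.9 kb. In the first 200 kb outside this border there were 6 protein-coding genes and no olfactory receptor, against 8 genes with 7 receptors in the last 200 kb inside. These border genes were chosen after their positions were seen.

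**Figure D2:**
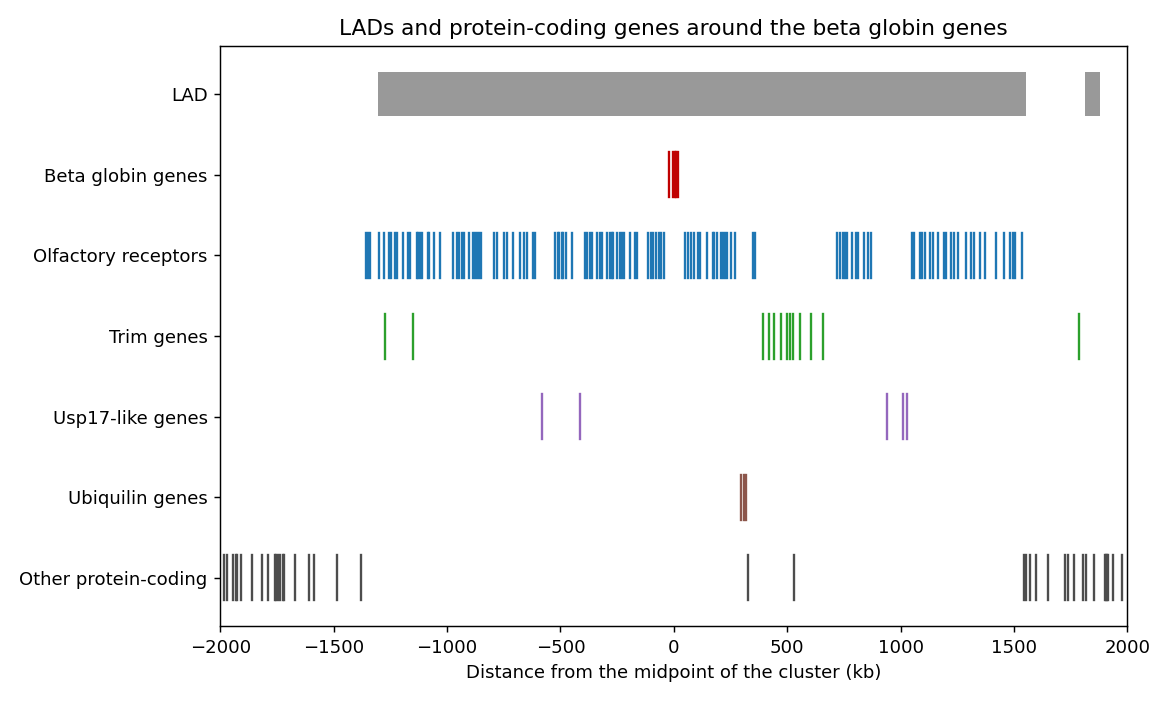
LADs (grey bars) and midpoints of protein-coding genes (ticks, 1 row per gene class) by distance from the midpoint of the beta globin cluster (horizontal axis, kb). The 5 globin genes (red) lie near the middle of the 2.85 Mb domain, between olfactory receptors (blue) on both sides. The Usp17-like and ubiquilin genes and most Trim genes lie inside it too. Most genes in the row of other protein-coding genes lie beyond its borders.

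Genes that are not receptors but sit among receptors were compared with the beta genes, a set chosen after the neighbours had been seen. For each beta globin gene, 16 of the 20 nearest protein-coding genes were olfactory receptors, the other 4 being the rest of the cluster. Across the genome, 96 protein-coding genes other than olfactory receptors had 10 or more receptors among their 20 nearest, and 63.5% of them were in a LAD. Without the beta globins and vomeronasal receptor genes this was 55 of 90 (61.1%). Of these 90 genes, 14 lie in the beta globin LAD itself, and of the 76 elsewhere 41 (53.9%) were in a LAD. LADs held 23.5% of 1036 genes with 1 to 9 such neighbours and 20.8% of 18889 genes with none. Genes among receptors outside the beta domain were thus found on either side of the map, with 35 of the 76 outside LADs.

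The alpha cluster ran from Hba-x to Hba-a2 over 20.7 kb (chromosome 11, 32276600 to 32297310, mm10). It lay near the middle (47.9%) of an interval of 1.97 Mb between LADs, from 31340575 to 33315568, which ranked 182 of 1416 such gaps by length. The cluster began 936 kb from the LAD on the low-coordinate side and ended 1018 kb from the one on the high-coordinate side. Hba-x (32276600 to 32278116) had its midpoint 936.8 kb from the nearest border. For Hba-a1 (32283672 to 32284486) it was 943.5 kb and for Hba-a2 (32296492 to 32297310) 956.3 kb. The embryonic and the adult alpha genes were thus at the same distance to within the length of the cluster. These are ordinary distances for genes outside LADs, whose median was 759.6 kb. Of them, 44.0% lay further from a border than Hba-x and 43.3% further than Hba-a2.

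The domains on either side of the alpha interval were short. The one on the low-coordinate side (31278075 to 31340574) measured 62.5 kb and held no midpoint of a protein-coding gene. The one on the high-coordinate side (33315569 to 33410567) measured 95.0 kb and held 1. Only 5.92% of the 1437 domains were as short as the first or shorter, and 15.7% as short as the second. With domains under 100 kb left out, the nearest LADs were 3.16 Mb away on the low-coordinate side (26610590 to 29113081) and 1.65 Mb away on the high-coordinate side (33948067 to 34563064). The alpha genes were outside LADs either way.

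None of the 20 nearest protein-coding neighbours of the alpha cluster was in a LAD, beside 24.6% of all protein-coding genes and 8.22% of those on chromosome 11. This follows from the gap, as the farthest of the 20 lay 906.5 kb from the cluster, short of both borders. None of these neighbours was an olfactory receptor. On the low-coordinate side these were Nprl3, a subunit of the GATOR1 complex that also carries the alpha globin enhancers, Mpg (a DNA glycosylase), Rhbdf1, Snrnp25 (of the minor spliceosome), Il9r (the interleukin 9 receptor), Nsg2, 4930524B15Rik, Cpeb4, Bod1 and Stc2. Nprl3 ended 8.89 kb from the cluster and its midpoint was 909.3 kb from the nearest LAD. Stc2, a secreted stanniocalcin, was the closest of them to a domain, at 24.2 kb. On the high-coordinate side they were Hbq1a, Sh3pxd2b (a podosome scaffold), Ubtd2, Efcab9, Stk10, Fbxw11, Smim23, Fgf18, Npm1 (nucleophosmin) and Tlx3, which was 113.4 kb from a domain. The whole interval held 24 protein-coding genes, or 12.2 per Mb, against 52.9 per Mb in the beta LAD.

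**Figure D3:**
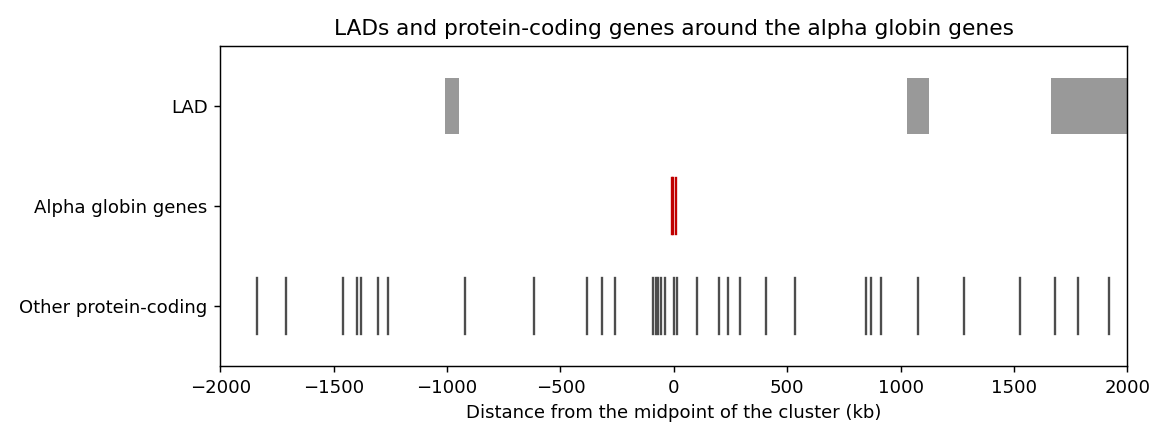
LADs (grey bars) and midpoints of protein-coding genes (ticks) by distance from the midpoint of the alpha globin cluster (horizontal axis, kb). The 3 alpha globin genes (red) lie in a gap of 1.97 Mb bounded by domains of 62.5 and 95.0 kb.

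The surroundings of the clusters were compared by the share of bases in LADs within windows around each cluster midpoint. With 500 kb on each side the beta window was covered to 100% and the alpha window to 0%, and the median over windows at all protein-coding genes was 8.75%. A window of this size was covered completely at 8.98% of protein-coding genes and not at all at 45.9%. With 1 Mb on each side the beta window was still covered to 100%, as it was at 3.76% of genes, and the alpha window to 2.68%. With 2 Mb on each side the values were 73.0% and 12.4%, with a median of 31.9%. With 5 Mb on each side they were 59.2% and 40.2%, with a median of 40.6%. The contrast between the clusters thus narrowed with wider windows and was still present at the widest. There the alpha cluster was close to the median of genes, and the beta cluster was above the upper quartile of 55.1%, with 19.2% of genes at least as covered. The spans of their chromosomes were covered to 59.7% (chromosome 7) and 40.6% (chromosome 11).

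**Figure D4:**
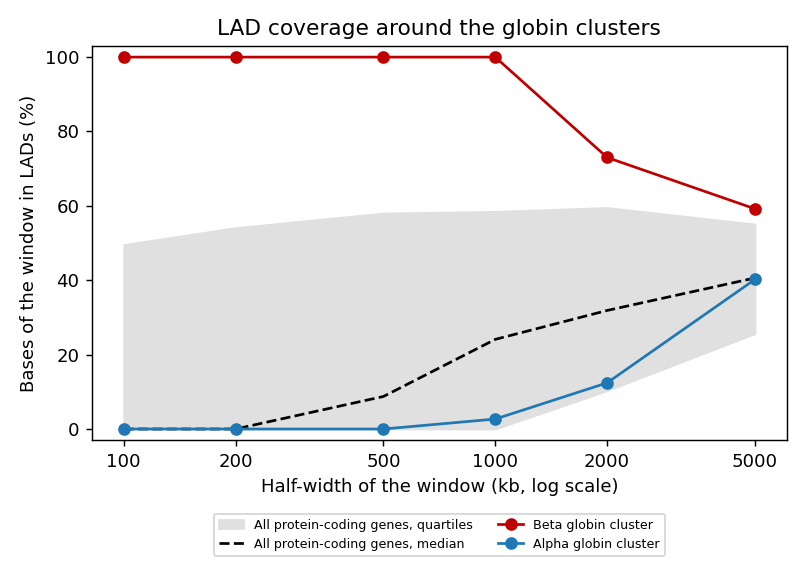
Share of bases in LADs (vertical axis, %) in windows around the midpoints of the beta (red) and alpha (blue) clusters, by half-width (horizontal axis, kb, log scale). The dashed line and the grey band are the median and quartiles over windows at all protein-coding genes. Up to 1000 kb the beta cluster is at 100%, and the alpha cluster is at 0% up to 500 kb.

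Of 5 other protein-coding globin genes with a place in the spans 1 was in a LAD, beside 24.6% of all protein-coding genes, and 2 of those outside are in or next to the alpha cluster. Of 2 alpha globin pseudogenes elsewhere none was in a LAD, beside 52% of all pseudogenes. The theta-type genes Hbq1b, which lies between Hba-a1 and Hba-a2, and Hbq1a, next to Hba-a2, were outside LADs at 946.9 and 959.9 kb from a border. The alpha pseudogenes Hba-ps3 (chromosome 15) and Hba-ps4 (chromosome 17) were outside at 6.17 and 2.75 Mb. Mb, which encodes myoglobin, the oxygen store of muscle, was outside at 4.54 Mb, and Ngb, neuroglobin, at 384.9 kb. Adgb, androglobin, a large globin of testis and ciliated cells, was in a LAD of 2.22 Mb at 763.1 kb from its border. Cygb, cytoglobin, which fibroblasts express, lies 2.03 Mb beyond the last domain of chromosome 11 and was not counted. Hbb-b1, Hbb-b2 and Hbb-bh0, which belong to the beta cluster of other strains, are tabulated before the first domain of chromosome 7, at positions that are not those of the cluster, and were not placed.

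Genes that work with the globins in red cells were counted next. Of 45 listed genes 44 were found in the table (all but Ahsp), and 7 of these (15.9%) were in a LAD. The share was 24.6% for all protein-coding genes and 19.8% without olfactory and vomeronasal receptor genes, so the count lay below both shares, and no test was made of this difference. The lists by function are short, and their counts are read beside the same shares. Among 13 transcription factors 1 was in a LAD (7.69%). It was Sox6, a repressor of embryonic beta-type globin, in a domain of 1.77 Mb. Bcl11a, another repressor of developmentally early globin genes, had its midpoint outside and was the closest of these, at 15.5 kb from a border. The gene is 96995 bp long and crosses that border, so part of it lies in the LAD. Myb followed, outside at 46.9 kb. Gata1 and Klf1, the activators whose sites were searched above, were outside at 363.8 and 1846 kb. Zfpm1, the GATA1 partner, was outside at 5452 kb, and Gfi1b at 4346 kb.

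Of 9 genes of heme synthesis none was in a LAD, beside 24.6% of all protein-coding genes. They lay at a median of 239.5 kb from a border, with Cpox the nearest at 49.2 kb. Membrane and membrane skeleton genes were in LADs in 4 of 13 cases (30.8%), among them Rhag and Kel. Rhag encodes the Rh-associated glycoprotein, 23.9 kb from a border. Kel encodes the Kell blood group protein, 115.8 kb from a border. Slc4a1, the anion exchanger band 3, was the farthest from a domain among the erythroid lists, at 6113 kb. Of 9 genes for iron handling, receptors and red cell enzymes 2 were in a LAD (22.2%). These were the neighbouring carbonic anhydrase genes Car1 and Car2, in a domain of 222.5 kb, with the midpoint of Car2 only 2.54 kb inside its border, about 1 step of the grid.

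**Figure D5:**
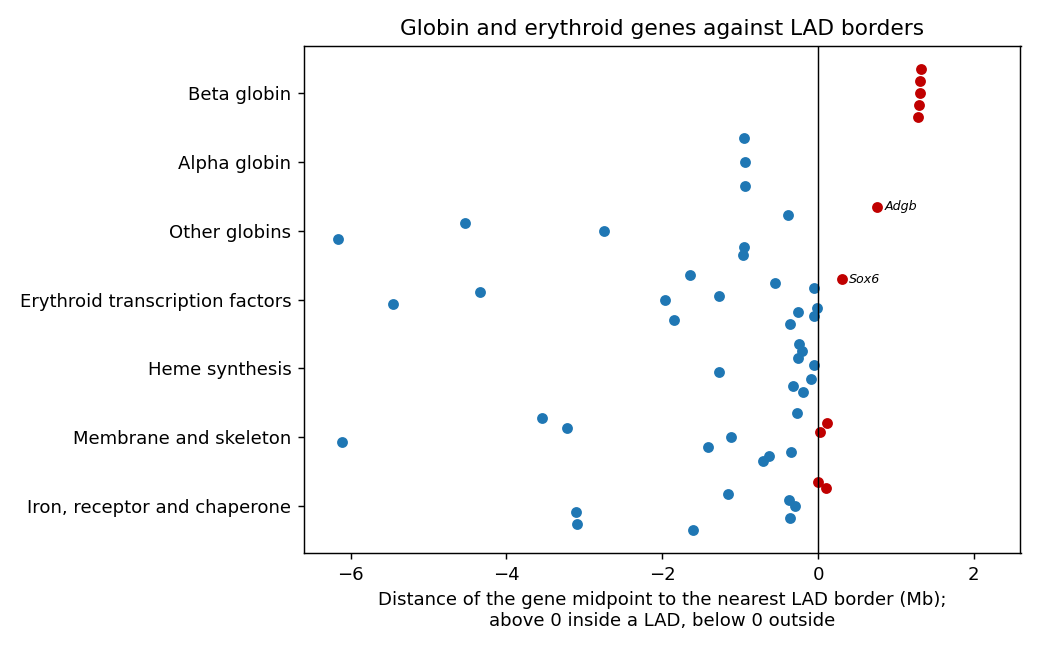
Distance of gene midpoints to the nearest LAD border (horizontal axis, Mb; above 0 inside a LAD, below 0 outside), 1 point per gene, for the globins and the erythroid gene lists (rows). The 5 beta globin genes lie at about 1.3 Mb inside, and the genes inside by under 0.2 Mb, not named in the plot, are Rhag, Kel, Car1 and Car2. Listed genes that are not reported here are not plotted.

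Gene clusters of other lineages gave each of these outcomes. The 5 casein genes of the mammary gland (Csn1s1, Csn2, Csn1s2a, Csn1s2b and Csn3) were all in 1 LAD of 1.66 Mb, at 605.5 to 826.5 kb from a border. Alb, Afp and Afm of the liver were outside at 296.7 to 364.2 kb while their relative Gc was in a LAD, and the fibrinogen genes Fga, Fgb and Fgg were outside at 38.0 to 56.5 kb.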

How the data were processed

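The only values used were the start and end positions (other unit: base pairs) of LADs in 1 list that the authors deposited. Per the submitters' processing notes, Bowtie2 and mm10 were used. The domain caller, its threshold and the use of IgG are not given in the sources used here. The deposited score was 0 for all 1437 domains and was not used. That the list rests on the Lamin B1 libraries was read from its name. Per the labels' protocols, 500000 cells entered each reaction. Domain lengths lay within 125 bp of multiples of 2.5 kb (100% of domains), and the smallest gap was 52.5 kb. IgG, H3K9me2 and H3K14ac were not analysed here.

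Positions are counted from 1. Genes and promoters came from RefSeq tables of GRCm38.p6, and a gene was in a LAD when its midpoint was. Genes were counted between the first and last domain of a chromosome. Scripts ran in Python 3.11.15 with Biopython 1.88 for promoter alignments, and the interval functions were tested on simulated data. The named genes were the members, other globins, the 10 nearest protein-coding genes on each side of either cluster, listed erythroid genes in LADs, and the 3 nearest to and 3 farthest from a border outside. Gata1 and Klf1 were named for the motifs searched. Genes in or at the borders of the beta domain and clusters of other lineages were named as well. Members, lists and rules were chosen with earlier results of these data known. Alternatives moved or joined borders, removed short domains and changed the gene point and window. Protein sequences were not used here. Some genes of the erythroid lists enter the counts and are not reported here.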

Additional observations from a re-analysis of the deposited data

How the results depend on the processing

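The 5 beta globin genes stayed in a LAD and the 3 alpha globin genes outside under all 10 other settings of gene point, domain length, joining and borders, and by transcription start (4 and 3 genes with a tabulated start), an alternative added after seeing the data. The count of other globins in LADs stayed at 1. That of erythroid genes ran from 5 (domains of at least 500 kb, or domains shortened by 50 kb) to 10 (lengthened by 50 kb) of 44. By transcription start it was 3 of the 31 with a tabulated start (9.68%), and by midpoint 3 of the same 31. The background share of protein-coding genes was 22.5% for whole genes, 26.0% for any overlap, 21.5% with domains of at least 500 kb, 25.4% and 27.1% with gaps of at most 100 and 200 kb joined, 21.3% and 29.4% with domains shortened and lengthened, and 19.8% without olfactory and vomeronasal receptor genes (added after seeing the data). The distance of the beta cluster to a border was 1233 kb and 1333 kb with domains shortened and lengthened by 50 kb. That of the alpha cluster was 1701 kb and 886.0 kb, and 1651 kb with domains of at least 100 or 500 kb, because the 62.5 kb and 95.0 kb domains drop out. Coverage with 2 Mb on each side was 73.0% (beta) and 12.4% (alpha), and with 1 Mb 2.68% (alpha). No paired analysis was possible because the list is 1 merged result without values per replicate, which also prevents leaving out a Lamin B1 library. The depth is unknown, and its part in the short domains was not tested.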
